A study of Homo sapiens with 14 samples.

Results

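The genes described here are 10 of the 13734 genes measured in a human breast cancer cell line, taken by name for their part in transcription elongation, and all 10 had a value in every library. HEXIM1 and LARP7 belong to the 7SK particle, CDK9, CCNT1 and CCNT2 form the kinase P-TEFb, AFF1, AFF4, ELL and ELL2 are parts of the super elongation complex, and CTR9 is a subunit of the PAF1 complex. The series asks how BET proteins, which bind acetylated histones, take part in transcription driven by YAP and TAZ, the co-activators that the Hippo pathway restrains. RNA was measured in MDA-MB-231 cells in 14 libraries, 2 for each of 7 groups. YAP and TAZ were knocked down together for 48 h with either of 2 siRNA mixes, called mix 1 and mix 2. BRD genes were knocked down for 72 h with mix A or mix B, and control siRNA served as the reference of all 4 mixes. JQ1, a drug that blocks the acetyl-lysine pocket of BET proteins, was given at 1 µM for 24 h and set against DMSO, its solvent. All siRNA groups were transfected with the same lipid reagent, and the labels give no time for the control siRNA or DMSO groups.

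RNA polymerase II often stops shortly after it has begun a gene, held there by the factors DSIF and NELF. P-TEFb, the kinase CDK9 with a cyclin T, phosphorylates these factors and the polymerase and so releases it. A large share of P-TEFb is kept inactive by HEXIM1 on the 7SK RNA, which LARP7 protects, and active P-TEFb is brought to genes by BET proteins or within the super elongation complex. HEXIM1 RNA is widely used as a readout of exposure to BET inhibitors.

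Reads assigned to genes numbered 15741695 to 37311326 per library, with a median of 23539829. Values are given as scaled RPM, the reads of a gene divided by a library size that the authors adjusted, and they compare a gene between libraries but not genes of different length. The targeted genes were lower in their knockdowns: YAP1 averaged 21.6 ± 2.34 with YAP/TAZ siRNA (SD, n = 4), against 182 ± 11.4 with control siRNA (SD, n = 2), and WWTR1 (TAZ) 14.5 ± 2.17, against 131 ± 6.29. BRD3 averaged 9.76 ± 0.742 with BRD siRNA (SD, n = 4), against 31.1 ± 1.96 with control siRNA (SD, n = 2), and BRD2 175 ± 21.6, against 252 ± 0.52. These genes also moved outside their own knockdowns. On the log2 scale, YAP1 was lower with BRD siRNA (-0.85) and with JQ1 (-0.84), each against its control. WWTR1 was lower with JQ1 (-0.33), not called with BRD siRNA (-0.12), and higher in control siRNA than in DMSO (0.67). BRD2 (1.91) and BRD3 (0.28) were higher with JQ1. With YAP/TAZ siRNA BRD2 (0.18) and BRD3 (0.17) were called higher, but libraries overlapped control siRNA. For this line 5 markers were listed as present, of which 4 were in the table and SPARC was not. VIM, a mesenchymal marker, lay between 2894 and 6615 scaled RPM in all libraries. MSN lay between 576 and 1077, CAV1 between 280 and 818 and CD44 between 73.6 and 359. Another 3 were listed as low or absent, of which ESR1 and PGR were not in the table and ERBB2 lay between 46.5 and 98.0. The summed level of the 9 measured luminal epithelial markers, of 11 listed, was 5383 to 5861 with JQ1, against 1408 to 1411 with DMSO. It was 2317 to 2472 with YAP/TAZ siRNA and 1238 to 1601 with BRD siRNA, against 1281 to 1344 with control siRNA. The sum rests mainly on KRT8, KRT18 and KRT19, with medians over all libraries of 552, 534 and 431. AGR2, TFF3 and SPDEF had medians of 18.7, 13.5 and 22.2 and reached at most 228, 119 and 136. EPCAM reached at most 18.6, GATA3 2.10 and FOXA1 1.38, and CDH1 and ESR1 were not in the table. Of 8 leukocyte markers 4 were in the table, CD68 the most abundant, and they summed to 123 to 183 with YAP/TAZ siRNA and 38.2 to 42.9 with BRD siRNA, against 67.5 to 69.7 with control siRNA, and to 79.8 to 83.3 with JQ1, against 70.6 to 71.7 with DMSO. Of 9 fibroblast and endothelial markers 4 were in the table, and they summed to 39.1 to 47.6 with YAP/TAZ siRNA and 32.7 to 53.2 with BRD siRNA, against 13.6 to 17.9 with control siRNA, and to 18.2 to 18.9 with JQ1, against 12.2 to 13.3 with DMSO. The part of these marker changes in the results below was not tested. The labels do not say whether the libraries of a group came from separate cultures, so the p-values measure the spread between these libraries, which may be technical. That spread was estimated per gene in 1 fit over all groups, not from the groups compared alone. Replicates differed most in BRD mix A, with a chi-square per gene of 10.6 on read counts, against 3.44 to 4.94 in the other groups. Errors of comparisons with BRD mix A may therefore be too small.

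HEXIM1 was the member that varied most. Its mean level spanned 3.88-fold over the 7 groups, and 80.5% of all genes had a smaller range. It stood at 124 and 129.6 scaled RPM with YAP/TAZ mix 1, at 102 and 100.3 with mix 2, at 157 and 171 with BRD mix A and at 113.0 and 114 with BRD mix B, against 53.2 and 58.4 with control siRNA. With JQ1 it stood at 213 and 225, against 71.0 and 80.4 with DMSO. Every treated library lay above both of its own controls and also above both controls of the other kind. In falling order the groups were JQ1, BRD mix A, YAP/TAZ mix 1, BRD mix B, YAP/TAZ mix 2, DMSO and control siRNA, and no neighbours in that order overlapped.

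HEXIM1 rose 2.01-fold with YAP/TAZ siRNA (log2 fold change 1.01, SE 0.0570, adjusted p = 9.65e-13, limma). With BRD siRNA it rose 2.42-fold (log2 1.27, SE 0.0570, adjusted p = 3.07e-14). With JQ1 it rose 2.88-fold (log2 1.52, SE 0.0659, adjusted p = 1.83e-14). A higher value was held by 9.32% of all tested genes with YAP/TAZ siRNA, 2.34% with BRD siRNA and 3.03% with JQ1. A larger change in either direction was held by 17.5%, 7.2% and 6.68%. In bulk RNA a change in the number of cells of a kind and a change in RNA per cell cannot be told apart. The YAP/TAZ and BRD comparisons share their 2 control siRNA libraries, in which HEXIM1 was lower than in DMSO (log2 -0.43, adjusted p = 1.37e-05). Against DMSO the YAP/TAZ rise was 0.58 (adjusted p = 6.02e-09) and the BRD rise 0.84 (adjusted p = 1.63e-11), both on the log2 scale. In these comparisons with DMSO, 27.9% and 12.3% of all tested genes had a higher value. A larger change in either direction was held by 52.4% and 26.8%.

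The promoter of HEXIM1 is shown because this is the member with the widest range. The 250 bases before its start (RefSeq, GRCh38.p14, chr17:45148225-45148474, plus strand) hold 1 TATAAA, in capitals, whose first base lies at position -29 from the start.
HEXIM1: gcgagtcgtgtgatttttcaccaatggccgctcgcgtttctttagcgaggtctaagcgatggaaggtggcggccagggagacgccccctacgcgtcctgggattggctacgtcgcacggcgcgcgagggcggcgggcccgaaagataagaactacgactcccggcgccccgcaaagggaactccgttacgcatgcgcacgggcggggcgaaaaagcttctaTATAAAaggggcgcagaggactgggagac
TATAAA was searched on both strands from 250 bases before to 50 after each start and was found in 11.5% of 35116 promoters. Among the 9 members with a RefSeq promoter entry it was found for HEXIM1 alone. GGAATG, the core of the TEAD motif, was not in this window of HEXIM1, nor was the AP-1 motif TGANTCA. RefSeq places the long non-coding RNA HEXIM2-AS1 over HEXIM1, and whether reads were counted by strand is unknown here, so reads of both genes may be mixed. The same limit holds for LARP7, AFF1 and AFF4, over which RefSeq also places other genes, among them the long non-coding RNA MIR302CHG over LARP7.

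**Figure D1:**
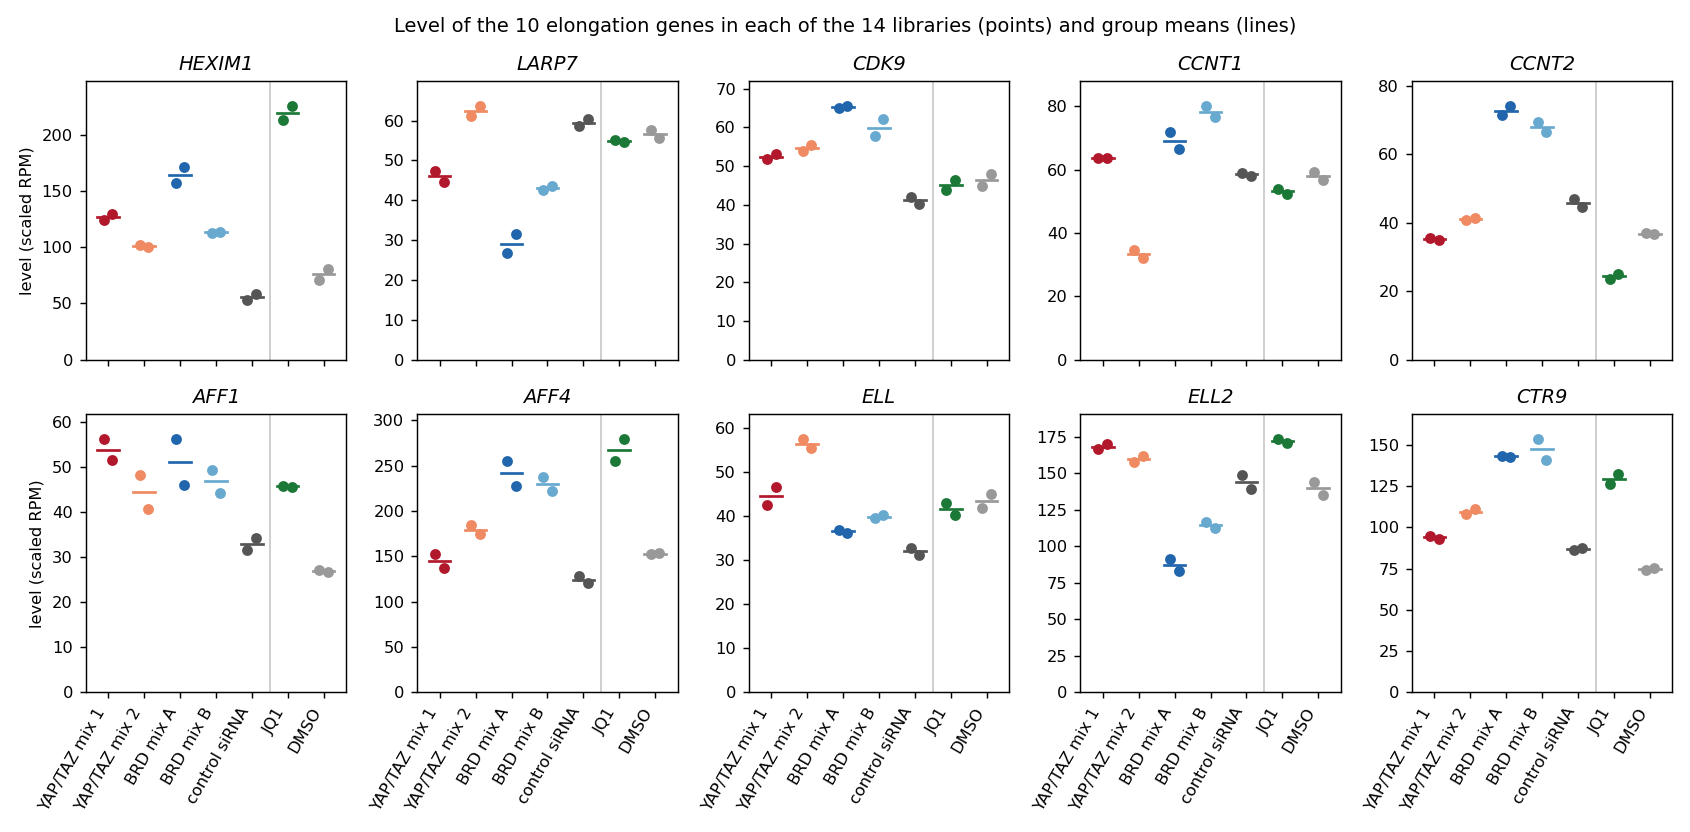
Level of each of the 10 genes in scaled RPM (vertical axes, linear from 0) in the 7 groups (horizontal axes). Points are single libraries, 2 a group, and bars their mean. HEXIM1 was lowest with control siRNA at 53.2 and 58.4 and highest with JQ1 at 213 and 225.

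LARP7, which binds and stabilises the 7SK RNA, did not follow HEXIM1. It fell with BRD siRNA, to 26.7 and 31.5 scaled RPM with mix A and 42.7 and 43.6 with mix B, against 58.5 and 60.5 with control siRNA. All 4 BRD libraries lay below both controls, with mix A the lower mix. The fall was 1.66-fold (log2 -0.73, SE 0.0612, adjusted p = 7.25e-10).

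YAP/TAZ siRNA gave LARP7 at 47.3 and 44.6 with mix 1 and 61.1 and 63.6 with mix 2. Mix 1 lay below and mix 2 above the control siRNA libraries. The mean of both mixes was lower than control siRNA by -0.15 on the log2 scale (adjusted p = 0.0309). Leaving out control siRNA replicate 1 (adjusted p = 0.0523) or 2 (0.15), mix 1 replicate 2 (0.0884) or mix 2 replicate 1 (0.0771) ended that call, and mix 2 alone gave 0.066 (adjusted p = 0.397). With JQ1, LARP7 had 55.1 and 54.6, against 57.7 and 55.6 with DMSO, a difference of -0.04 (95% interval -0.19 to 0.10, adjusted p = 0.581).

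CDK9, the kinase subunit of P-TEFb, had the narrowest range of the 10 genes, with 12.7% of all genes narrower. Its level was 51.7 and 53.1 with YAP/TAZ mix 1, 53.9 and 55.5 with mix 2, 64.9 and 65.5 with BRD mix A and 57.8 and 62.2 with BRD mix B, against 42.1 and 40.3 with control siRNA. All 8 knockdown libraries were above both controls. CDK9 rose by 0.37 on the log2 scale with YAP/TAZ siRNA (SE 0.0547, adjusted p = 2.91e-06). With BRD siRNA it rose by 0.59 (SE 0.0547, adjusted p = 3.7e-09). Against DMSO the YAP/TAZ rise was 0.21 (adjusted p = 0.00169). JQ1 libraries had 43.8 and 46.3, against 44.8 and 47.9 with DMSO, and overlapped them (log2 -0.04, 95% interval -0.17 to 0.09, adjusted p = 0.586).

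CCNT1, cyclin T1, differed between the YAP/TAZ mixes more than any other member did. It stood at 63.5 and 63.7 scaled RPM with mix 1 and at 34.5 and 31.9 with mix 2, against 59.0 and 58.1 with control siRNA. Mix 2 was below every other library of the study, while mix 1 was slightly above its controls. The difference between the mixes was 0.92 on the log2 scale, mix 1 minus mix 2 (adjusted p = 5.04e-11). Mix 2 alone was 1.74-fold lower than control siRNA (log2 -0.80, adjusted p = 1.97e-10) and mix 1 alone was at 0.12 (adjusted p = 0.0945). The mean over both mixes, -0.34 (adjusted p = 7.51e-06), therefore describes neither mix.

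BRD siRNA raised CCNT1 in both mixes, to 71.8 and 66.4 with mix A and 79.9 and 76.5 with mix B. These libraries lay above both control siRNA libraries, and the rise was 0.32 on the log2 scale (SE 0.0540, adjusted p = 1.69e-05). JQ1 gave 53.9 and 52.2, against 59.2 and 56.8 with DMSO. The groups did not overlap, but the difference of -0.13 did not pass the threshold (95% interval -0.26 to 0.00438, adjusted p = 0.0755), and it did pass with median-ratio scaling (-0.16, adjusted p = 0.024).

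CCNT1 was the 1 member of the 9 with a TEAD core in its promoter, found on the opposite strand as CATTCC and starting at position -150. It was also 1 of 2 members, with AFF4, that held the E-box CACGTG. Its 250 bases (RefSeq, GRCh38.p14, chr12:48716708-48716957, minus strand) are written along the gene with both motifs in capitals.
CCNT1: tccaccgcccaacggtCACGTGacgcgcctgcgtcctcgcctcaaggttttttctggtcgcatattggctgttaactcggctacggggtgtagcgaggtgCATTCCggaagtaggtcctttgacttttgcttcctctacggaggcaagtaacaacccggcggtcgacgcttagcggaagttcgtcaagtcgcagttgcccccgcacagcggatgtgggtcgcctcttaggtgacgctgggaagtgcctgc
Across the same 35116 promoters, GGAATG was found on either strand in 14% and CACGTG in 7.26%. A match in these letters is a description only, and binding was not measured here.

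CCNT2, cyclin T2, is the alternative cyclin of P-TEFb, and it moved in opposite directions with BRD siRNA and with JQ1. It rose to 71.5 and 74.0 scaled RPM with BRD mix A and 69.3 and 66.4 with mix B, against 46.8 and 44.6 with control siRNA. It fell to 23.6 and 25 with JQ1, against 36.9 and 36.6 with DMSO. The groups did not overlap in either comparison. The rise with BRD siRNA was 1.53-fold (log2 0.61, SE 0.0542, adjusted p = 1.99e-09), and 0.92 against DMSO. The fall with JQ1 was 1.49-fold (log2 -0.58, SE 0.0626, adjusted p = 4.45e-08), and -0.88 against control siRNA. The difference between the 2 effects, JQ1 minus BRD siRNA, was -1.19 (SE 0.0828, adjusted p = 1.9e-10), and 7.38% of all tested genes had a larger one in either direction.

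YAP/TAZ siRNA lowered CCNT2 against control siRNA, with 35.6 and 34.8 in mix 1 and 40.9 and 41.3 in mix 2 (log2 -0.26, adjusted p = 0.000196). All 4 libraries were below both controls. CCNT2 was itself higher in control siRNA than in DMSO (0.31, adjusted p = 0.000317), and against DMSO the YAP/TAZ value was 0.049 (adjusted p = 0.4).

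**Figure D2:**
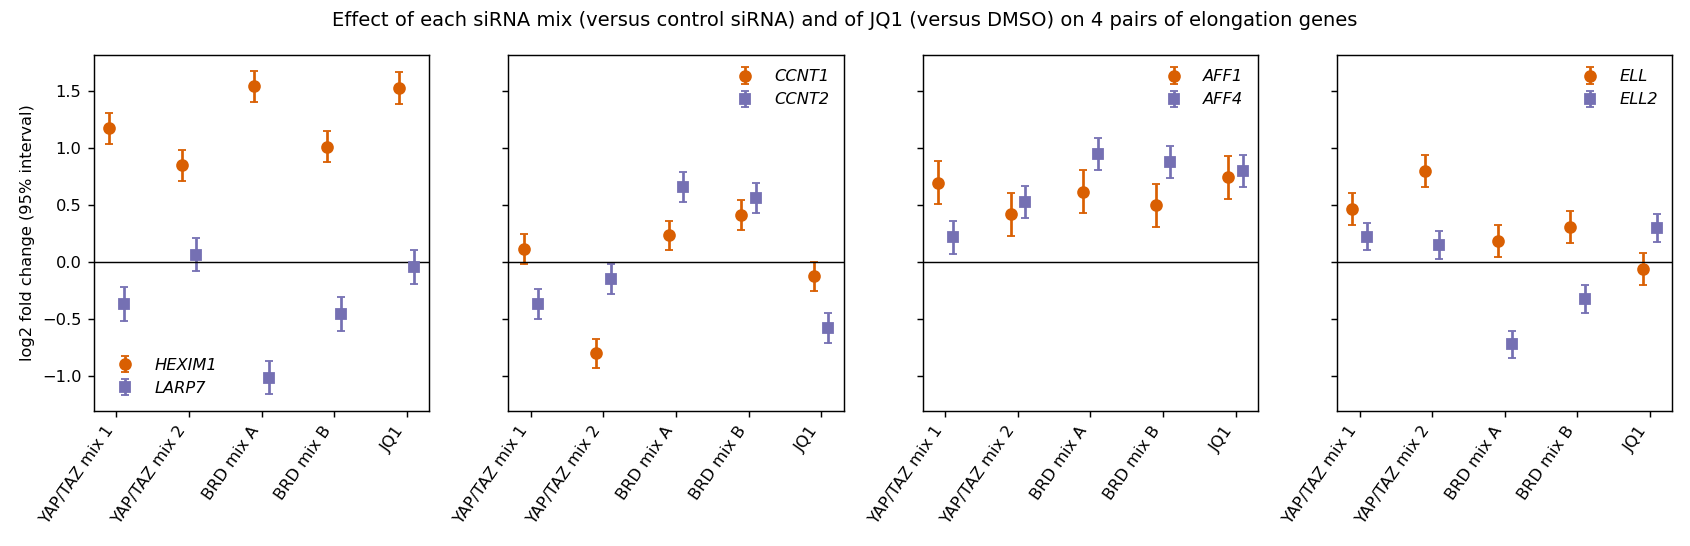
Log2 fold changes of each pair of related genes (HEXIM1 and LARP7, CCNT1 and CCNT2, AFF1 and AFF4, ELL and ELL2) for each siRNA mix against control siRNA and for JQ1 against DMSO, with 95% intervals. CCNT1 was at -0.80 with YAP/TAZ mix 2 and 0.12 with mix 1, and CCNT2 was at 0.66 and 0.56 with the BRD mixes and -0.58 with JQ1.

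Both scaffolds of the super elongation complex rose in all 3 comparisons. AFF1 stood at 56.1 and 51.5 scaled RPM with YAP/TAZ mix 1, 48.1 and 40.5 with mix 2, 56.0 and 46.0 with BRD mix A and 49.4 and 44.3 with BRD mix B, against 31.5 and 34.1 with control siRNA. With JQ1 it stood at 45.8 and 45.5, against 27.1 and 26.7 with DMSO. Each treated library was above both of its controls, and among the 5 treated groups each overlapped its neighbour in rank.

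AFF1 rose by 0.56 on the log2 scale with YAP/TAZ siRNA (SE 0.0782, adjusted p = 1.52e-06) and by 0.56 with BRD siRNA (SE 0.0782, adjusted p = 1.72e-06). With JQ1 it rose by 0.74 (SE 0.0903, adjusted p = 2.38e-07). No difference was detected between the YAP/TAZ and BRD groups, with a 95% interval of -0.13 to 0.13. For JQ1 minus BRD siRNA the interval was -0.06 to 0.43 (adjusted p = 0.19), and the difference passed the threshold without BRD mix A replicate 1 (0.25, adjusted p = 0.0405).

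AFF4 was highest with JQ1, at 255 and 279 scaled RPM, against 152 and 153 with DMSO. It stood at 255 and 228 with BRD mix A and 237 and 222 with mix B, and at 153 and 137 with YAP/TAZ mix 1 and 184 and 175 with mix 2, against 129 and 120.3 with control siRNA. JQ1 and BRD mix A overlapped, both lay clear of their controls, and YAP/TAZ mix 1 reached the level of DMSO. The rise was 1.74-fold with JQ1 (log2 0.80, SE 0.0676, adjusted p = 9.27e-10). It was 1.88-fold with BRD siRNA (log2 0.91, SE 0.0586, adjusted p = 1.03e-11). With YAP/TAZ siRNA AFF4 rose by 0.37 (SE 0.0586, adjusted p = 7.47e-06), and against DMSO in place of control siRNA the value was 0.08 (adjusted p = 0.233).

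ELL, an elongation factor that reduces pausing of the polymerase, was highest with YAP/TAZ mix 2. It had 42.6 and 46.6 scaled RPM with mix 1 and 57.4 and 55.4 with mix 2, against 32.7 and 31.2 with control siRNA. The rise was 1.55-fold (log2 0.63, SE 0.0588, adjusted p = 3.23e-09), and all 4 libraries were above both controls. Mix 1 overlapped DMSO, and against DMSO the YAP/TAZ value was 0.20 (adjusted p = 0.00307). BRD siRNA gave 36.7 and 36.2 with mix A and 39.5 and 40.2 with mix B, a rise of 0.25 (adjusted p = 0.000751). The level in DMSO, 41.9 and 44.9, was above control siRNA, so that against DMSO the BRD value was -0.18 (adjusted p = 0.00819). JQ1 gave 43.0 and 40.2 and overlapped DMSO (-0.06, 95% interval -0.20 to 0.08, adjusted p = 0.443), while against control siRNA it was at 0.37 (adjusted p = 5.51e-05).

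ELL2, the paralog of ELL, fell with BRD siRNA and rose with JQ1. It had 91.1 and 83.0 scaled RPM with BRD mix A and 117 and 113 with mix B, against 149 and 139 with control siRNA. With JQ1 it had 173 and 171, against 144 and 135 with DMSO. Neither pair of groups overlapped. The fall with BRD siRNA was 1.44-fold (log2 -0.52, SE 0.0501, adjusted p = 6.4e-09). The rise with JQ1 was 1.23-fold (log2 0.30, SE 0.0579, adjusted p = 9.16e-05). The difference between these effects, JQ1 minus BRD siRNA, was 0.82 (SE 0.0765, adjusted p = 1.3e-08).

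YAP/TAZ siRNA raised ELL2, with 167 and 170.2 in mix 1 and 158 and 162 in mix 2 (log2 0.19, SE 0.0501, adjusted p = 0.00199). All 4 were above both control siRNA libraries. ELL2 overlaps CAST, the gene of the protease inhibitor calpastatin, in RefSeq, and reads of the overlap may be mixed. CAST averaged 316 ± 18.6 with BRD mix A and 245 ± 0.965 with mix B, against 382 ± 9.43 with control siRNA (SD, n = 2 each). It averaged 343 ± 16.9 with JQ1, against 254 ± 8.12 with DMSO, and 430.3 ± 10.0 and 621 ± 5.40 with the YAP/TAZ mixes. The CAST mean lay on the same side of its control as that of ELL2 in each case. Other contrasts differed. Between BRD mix A and mix B, ELL2 was lower in mix A (87.0 against 115) and CAST was higher. Between YAP/TAZ mix 1 and mix 2, ELL2 averaged 168 and 160 while CAST was higher in mix 2. Control siRNA and DMSO had ELL2 at 144 and 140, where CAST had 382 and 254. The part of CAST in the ELL2 values was not tested.

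CTR9, a scaffold subunit of the PAF1 complex, which travels with the polymerase, rose in all 3 comparisons. It had 143 and 142 scaled RPM with BRD mix A and 153 and 141 with mix B, and 94.9 and 93.0 with YAP/TAZ mix 1 and 108 and 111 with mix 2, against 86.1 and 87.5 with control siRNA. JQ1 gave 126 and 132, against 74.0 and 75.6 with DMSO. Every treated library was above both of its controls, YAP/TAZ mix 1 by the least. CTR9 rose 1.66-fold with BRD siRNA (log2 0.73, SE 0.0477, adjusted p = 1.31e-11). It rose 1.72-fold with JQ1 (log2 0.78, SE 0.0551, adjusted p = 4.83e-11). The rise with YAP/TAZ siRNA was 0.22 (SE 0.0477, adjusted p = 0.000258), and mix 1 alone, at 0.11, did not pass (adjusted p = 0.07). Against DMSO the YAP/TAZ rise was 0.43 (adjusted p = 3.3e-08).

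With YAP/TAZ siRNA 7 were called higher and 3 lower at an adjusted p under 0.05, while 78.9% of all 13674 tested genes were called, 43.1% higher and 35.9% lower. With BRD siRNA 8 were called higher and 2 lower, while 75.2% of all genes were called, 37.6% higher and 37.6% lower. With JQ1 5 were called higher, 1 lower and 4 in neither direction, while 73.9% of all genes were called, 37.6% higher and 36.3% lower. The median log2 fold change of the 10 genes was 0.30 with YAP/TAZ siRNA, where that of all genes was 0.07. It was 0.57 with BRD siRNA, where that of all genes was -0.0047, and 0.13 with JQ1, where that of all genes was 0.01.

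Mix by mix, YAP/TAZ mix 1 had 6 members called higher and 2 lower than control siRNA, where 74.3% of all genes were called, 40.6% higher and 33.6% lower. Mix 2 had 7 higher and 2 lower, where 78.4% were called, 42.7% higher and 35.7% lower. BRD mix A had 8 higher and 2 lower, where 73.3% were called, 37.2% higher and 36.1% lower. Mix B also had 8 higher and 2 lower, where 70.8% were called, 35.3% higher and 35.5% lower. In both BRD mixes the members lower than control siRNA were LARP7 and ELL2.

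With the references exchanged, YAP/TAZ siRNA had 6 members called higher and 1 lower than DMSO, where 84.2% of all genes were called, 44.4% higher and 39.8% lower. BRD siRNA had 7 higher and 3 lower than DMSO, where 78.8% were called, 39.1% higher and 39.7% lower. JQ1 had 6 higher and 1 lower than control siRNA, where 72.8% were called, 37.5% higher and 35.4% lower. HEXIM1 was at 1.96 and AFF1 at 0.47 (adjusted p = 0.000101) in the JQ1 comparison with control siRNA.

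**Figure D3:**
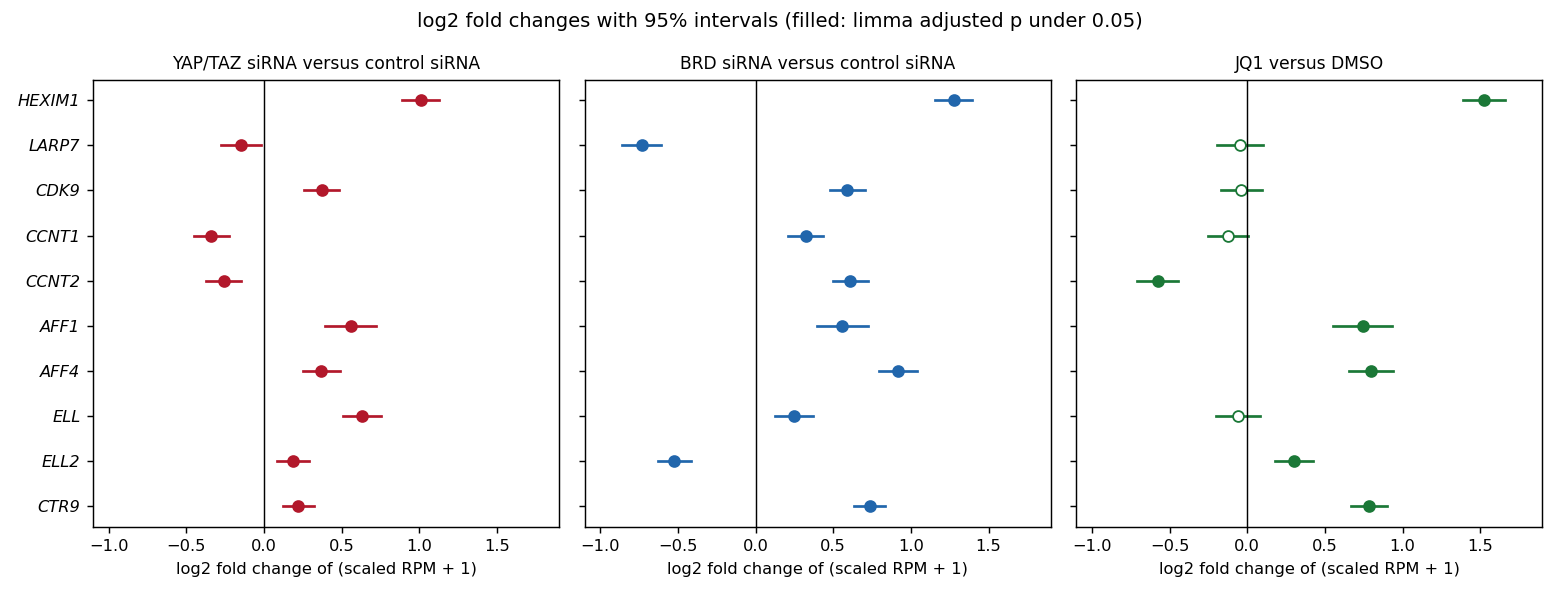
Log2 fold change with 95% interval (horizontal axis) of each of the 10 genes in the comparisons of YAP/TAZ siRNA and BRD siRNA with control siRNA and of JQ1 with DMSO. Filled points passed an adjusted p of 0.05. HEXIM1 lay at 1.01, 1.27 and 1.52, and LARP7 at -0.15, -0.73 and -0.04.

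The JQ1 effect and the BRD siRNA effect were compared directly, although they differ in time (24 h and 72 h), in agent and in control. JQ1 minus BRD siRNA was called higher for 3 members and lower for 4, where 60.1% of all genes were called, 30.2% higher and 29.9% lower. Next to CCNT2 and ELL2, LARP7 differed by 0.69 (adjusted p = 2.38e-06), CDK9 by -0.63 (adjusted p = 1.73e-06), CCNT1 by -0.45 (adjusted p = 9.01e-05) and ELL by -0.31 (adjusted p = 0.00589). In the main fit LARP7, CDK9, CCNT1 and ELL were each called with BRD siRNA and not with JQ1. For CTR9 the interval of the difference was -0.10 to 0.20 (adjusted p = 0.587), and for AFF4 it was -0.30 to 0.07 (adjusted p = 0.276). The HEXIM1 difference of 0.25 (adjusted p = 0.018) no longer passed on leaving out control siRNA replicate 2 (0.18, adjusted p = 0.0984), DMSO replicate 1 (0.16, adjusted p = 0.158) or JQ1 replicate 2 (0.21, adjusted p = 0.0889).

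Set directly against each other, YAP/TAZ siRNA was higher than BRD siRNA for 3 members and lower for 6, where 81.3% of all genes were called, 41.1% higher and 40.3% lower. LARP7 (0.58, adjusted p = 7.3e-10), ELL (0.39, adjusted p = 2.38e-07) and ELL2 (0.71, adjusted p = 1.02e-12) were higher with YAP/TAZ siRNA, and for each gene all 4 YAP/TAZ libraries lay above all 4 BRD libraries. CCNT2 (-0.87, adjusted p = 1.31e-13), CCNT1 (-0.66, adjusted p = 1.1e-11), AFF4 (-0.54, adjusted p = 1.12e-09), CTR9 (-0.51, adjusted p = 1.06e-10) and CDK9 (-0.22, adjusted p = 0.000131) were lower, with no overlap. HEXIM1 was lower by -0.26 (adjusted p = 2.53e-05), but YAP/TAZ mix 1 lay above BRD mix B. These knockdowns were also harvested at different times, 48 h and 72 h.

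The JQ1 effect exceeded the YAP/TAZ siRNA effect for HEXIM1 by 0.51 (adjusted p = 3.09e-05), CTR9 by 0.56 (adjusted p = 1.06e-06) and AFF4 by 0.43 (adjusted p = 0.000297). It was below it for ELL by -0.69 (adjusted p = 1.01e-06), CDK9 by -0.41 (adjusted p = 0.000227) and CCNT2 by -0.32 (adjusted p = 0.00225). With CCNT1 (0.22, adjusted p = 0.028), 4 members were called higher and 3 lower, where 63.3% of all genes were called, 30.9% higher and 32.4% lower. CCNT1 was no longer called on leaving out control siRNA replicate 1 (0.20, adjusted p = 0.0611), YAP/TAZ mix 2 replicate 2 (0.19, adjusted p = 0.059), DMSO replicate 2 (0.19, adjusted p = 0.113) or JQ1 replicate 1 (0.19, adjusted p = 0.0948).

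The mixes of 1 target set differed for many members. Between YAP/TAZ mix 1 and mix 2, 3 members were called higher and 5 lower, where 65.7% of all genes were called, 30.9% higher and 34.8% lower. Beside CCNT1, LARP7 differed by -0.43 (adjusted p = 1.89e-05), ELL by -0.33 (adjusted p = 0.000215), HEXIM1 by 0.32 (adjusted p = 0.000219) and AFF4 by -0.31 (adjusted p = 0.000459). AFF1 differed by 0.28 (adjusted p = 0.0104), but not without mix 1 replicate 1 (0.22, adjusted p = 0.105) or mix 2 replicate 2 (0.16, adjusted p = 0.205). Between BRD mix A and mix B, 1 member was called higher and 3 lower, where 50% of all genes were called, 25.7% higher and 24.3% lower. HEXIM1 (0.53, adjusted p = 1.05e-06), LARP7 (-0.56, adjusted p = 1.32e-06) and ELL2 (-0.40, adjusted p = 8.05e-06) were each farther from control siRNA in mix A. CCNT1 (-0.18, adjusted p = 0.0223) was not called without BRD mix A replicate 2 (-0.12, adjusted p = 0.179) or mix B replicate 1 (-0.15, adjusted p = 0.156).

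Control siRNA differed from DMSO for 7 members, 3 higher and 4 lower, where 54.2% of all genes were called, 25.4% higher and 28.7% lower. Beside HEXIM1 and CCNT2, ELL was lower by -0.43 (adjusted p = 2.2e-05), AFF4 was lower by -0.29 (adjusted p = 0.00101) and CTR9 was higher by 0.21 (adjusted p = 0.00288). AFF1 (0.28, adjusted p = 0.0138) and CDK9 (-0.17, adjusted p = 0.0317) were not called without DMSO replicate 2 (adjusted p = 0.0623 for AFF1 and 0.23 for CDK9) or control siRNA replicate 2 (adjusted p = 0.103 and 0.144). Transfection, handling and any difference in time cannot be told apart between these groups.

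Across the 7 group means, as a description of groups that share scaling, AFF4 moved most closely with CTR9 (Pearson r = 0.876) and HEXIM1 with AFF4 (r = 0.843). LARP7 moved with ELL2 (r = 0.827), and CCNT2 moved against ELL2 (r = -0.889). Among 8852 genes searched, 55 had an r above 0.9 with HEXIM1. The nearest was the uncharacterised gene LOC100505817 (r = 0.994), with mean levels of 67.5 and 57.2 scaled RPM in the YAP/TAZ mixes and 93.8 and 62.7 in the BRD mixes, against 28.1 with control siRNA, and 111 with JQ1, against 39.3 with DMSO. Its position relative to HEXIM1 was not analysed here, so reads shared between them cannot be told apart. PKD1 (r = 0.982), ESRG (r = 0.976), MIEN1 (r = 0.967) and LRFN3 (r = 0.965) followed.

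Of 61 other genes of elongation and of RNA polymerase II, 15 rose and 31 fell with YAP/TAZ siRNA. With BRD siRNA 25 rose and 21 fell, and with JQ1 16 rose and 29 fell. The shares called were 75.4%, 75.4% and 73.8%, where 78.9%, 75.2% and 73.9% of all genes were called with YAP/TAZ siRNA, BRD siRNA and JQ1. Median log2 fold changes were -0.13 with YAP/TAZ siRNA, 0.02 with BRD siRNA and -0.12 with JQ1. Against DMSO, 11 rose and 44 fell with YAP/TAZ siRNA, and 17 rose and 33 fell with BRD siRNA. Against control siRNA, 23 rose and 15 fell with JQ1. Of all genes 84.2%, 78.8% and 72.8% were called there. Control siRNA itself had 8 higher and 35 lower than DMSO, where 54.2% of all genes were called. The balance of rises and falls with BRD siRNA and JQ1 thus depended on the reference.

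DDX21, an RNA helicase that can release P-TEFb from the 7SK particle, fell in all 3 comparisons. It had 115 and 120.1 scaled RPM with YAP/TAZ mix 1, 78.8 and 80.1 with mix 2, 299 and 329 with BRD mix A and 304 and 293 with BRD mix B, against 619 and 536 with control siRNA. With JQ1 it had 276 and 282, against 828 and 779 with DMSO. The log2 fold changes were -2.56 (adjusted p = 3.52e-19), -0.91 and -1.52 (adjusted p = 1.46e-14) with YAP/TAZ siRNA, BRD siRNA and JQ1. No treated library reached its controls, and the YAP/TAZ libraries were the lowest. PPM1G, a phosphatase that also acts on the 7SK particle, fell with YAP/TAZ siRNA (-1.20), BRD siRNA (-0.51) and JQ1 (-0.58). The splicing factor SRSF2, also a 7SK partner, fell in the same comparisons (-0.56, -0.23 and -0.64). Of the 6 genes of this group, 2 rose and 3 fell with YAP/TAZ siRNA, 2 rose and 4 fell with BRD siRNA, and 1 rose and 4 fell with JQ1, where 78.9%, 75.2% and 73.9% of all genes were called.

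SSRP1, a subunit of the histone chaperone FACT, had 58.5 and 60.6 with YAP/TAZ mix 1, 188 and 201 with mix 2, 191 and 207 with BRD mix A and 154 and 163 with BRD mix B, against 386 and 367 with control siRNA. JQ1 gave 202 and 203, against 490.3 and 492 with DMSO. It fell in all 3 comparisons (log2 -1.80, -1.08 and -1.27), and no treated library overlapped its controls. SUPT16H, the other FACT subunit, fell with YAP/TAZ siRNA (-1.17), BRD siRNA (-0.49) and JQ1 (-0.76). Of the 9 genes of other elongation factors and histone chaperones, 3 rose and 5 fell with YAP/TAZ siRNA, 3 rose and 5 fell with BRD siRNA, and 2 rose and 5 fell with JQ1, where 78.9%, 75.2% and 73.9% of all genes were called.

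In the super elongation complex group outside the 10 genes, EAF1, a partner of ELL, fell with YAP/TAZ siRNA to 21.2 and 19.4 in mix 1 and 37.0 and 34.5 in mix 2, against 61.8 and 58.5 with control siRNA (log2 -1.13, adjusted p = 2.1e-13). AFF3, a further AFF family member, had 50.3 and 47.2 with BRD mix A and 23.3 and 25 with mix B, against 58.7 and 62.4 with control siRNA. The mean over both mixes (-0.80, adjusted p = 1.69e-10) describes neither, since mix A was at -0.31 and mix B at -1.29, and mix A was near the 45.6 and 47.4 of DMSO. AFF3 fell with JQ1 to 23.4 in both libraries (-0.96), where AFF1 and AFF4 rose. MLLT3, a reader of acylated histones, rose with JQ1 to 41.8 and 41.9, against 15.0 and 15.8 with DMSO (1.39, adjusted p = 5.06e-13). Of the 6 genes of this group, 2 rose and 3 fell with YAP/TAZ siRNA, 0 rose and 4 fell with BRD siRNA, and 2 rose and 3 fell with JQ1, where 78.9%, 75.2% and 73.9% of all genes were called.

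Of 12 subunits of RNA polymerase II, 0 rose and 7 fell with YAP/TAZ siRNA, 58.3% called where 78.9% of all genes were, 43.1% higher and 35.9% lower. Among them was POLR2D (-1.23). With BRD siRNA 6 subunits rose and 3 fell, where 75.2% of all genes were called, and POLR2L rose to 382 and 425 with mix A and 288 and 293 with mix B, against 147 and 168 with control siRNA (1.12, adjusted p = 4.38e-13). With JQ1 5 rose and 4 fell, where 73.9% of all genes were called. Against DMSO, 0 subunits rose and 12 fell with YAP/TAZ siRNA, where 84.2% of all genes were called. With BRD siRNA against DMSO 2 rose and 6 fell, where 78.8% were called. With JQ1 against control siRNA 8 rose and 2 fell, where 72.8% were called. POLR2A, the largest subunit, rose with JQ1 to 86.8 and 90.4, against 43.9 and 45.0 with DMSO (0.98, adjusted p = 1.06e-10), and POLR2D fell (-0.94). Of 6 DSIF and NELF genes, 2 rose and 2 fell with YAP/TAZ siRNA, 5 rose and 0 fell with BRD siRNA, and 2 rose and 3 fell with JQ1. Of the 5 remaining PAF1 complex genes, 1 rose and 3 fell with YAP/TAZ siRNA, 3 rose and 0 fell with BRD siRNA, and 1 rose and 2 fell with JQ1, beside the rise of CTR9 in each. Of 3 genes of the little elongation complex, a relative of the super elongation complex that acts at small nuclear RNA genes, 3 fell with YAP/TAZ siRNA, 1 rose and 1 fell with BRD siRNA, and 3 fell with JQ1. Of 8 other transcription kinase and cyclin genes, 1 rose and 4 fell with YAP/TAZ siRNA, 3 rose and 1 fell with BRD siRNA, and 2 rose and 1 fell with JQ1. For each of these 4 groups the shares of all genes called are the same 78.9%, 75.2% and 73.9%. Against DMSO, BRD siRNA had 3 higher and 1 lower of DSIF and NELF and 2 and 2 of the PAF1 complex. It had 1 and 2 of the little elongation complex and 2 and 4 of the kinases and cyclins (78.8% of all genes). YAP/TAZ siRNA against DMSO gave 2 and 4, 1 and 4, 0 and 3, and 0 and 5 (84.2%). JQ1 against control siRNA gave 3 and 0, 2 and 0, 0 and 1, and 4 and 0 (72.8%).

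Among phosphatases of the polymerase's C-terminal domain, 4 of 6 rose and 1 fell with YAP/TAZ siRNA, 2 rose and 3 fell with BRD siRNA, and 1 rose and 4 fell with JQ1, where 78.9%, 75.2% and 73.9% of all genes were called. CTDSP2 had 244 and 240.4 with YAP/TAZ mix 1 and 138 and 141 with mix 2, against 98.2 and 105 with control siRNA (0.85 over both mixes, 0.45 with mix 2 alone). SSU72 was higher with YAP/TAZ siRNA (0.94). CTDSPL fell with BRD siRNA to 24.7 and 27.3 in mix A and 26.0 and 27.1 in mix B, against 75.8 and 76.1 with control siRNA (-1.50, adjusted p = 6.72e-15), and CTDSP1 fell as well (-0.85). Against DMSO the CTDSP1 value was -0.28, and mix A replicate 1, at 40.2, overlapped the 40.1 and 41.4 of DMSO. SSU72 rose by 0.78 with BRD siRNA, but its control siRNA level of 30.8 and 30.3 lay below the 69.7 and 66.3 of DMSO and all siRNA libraries stayed under DMSO.

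**Figure D4:**
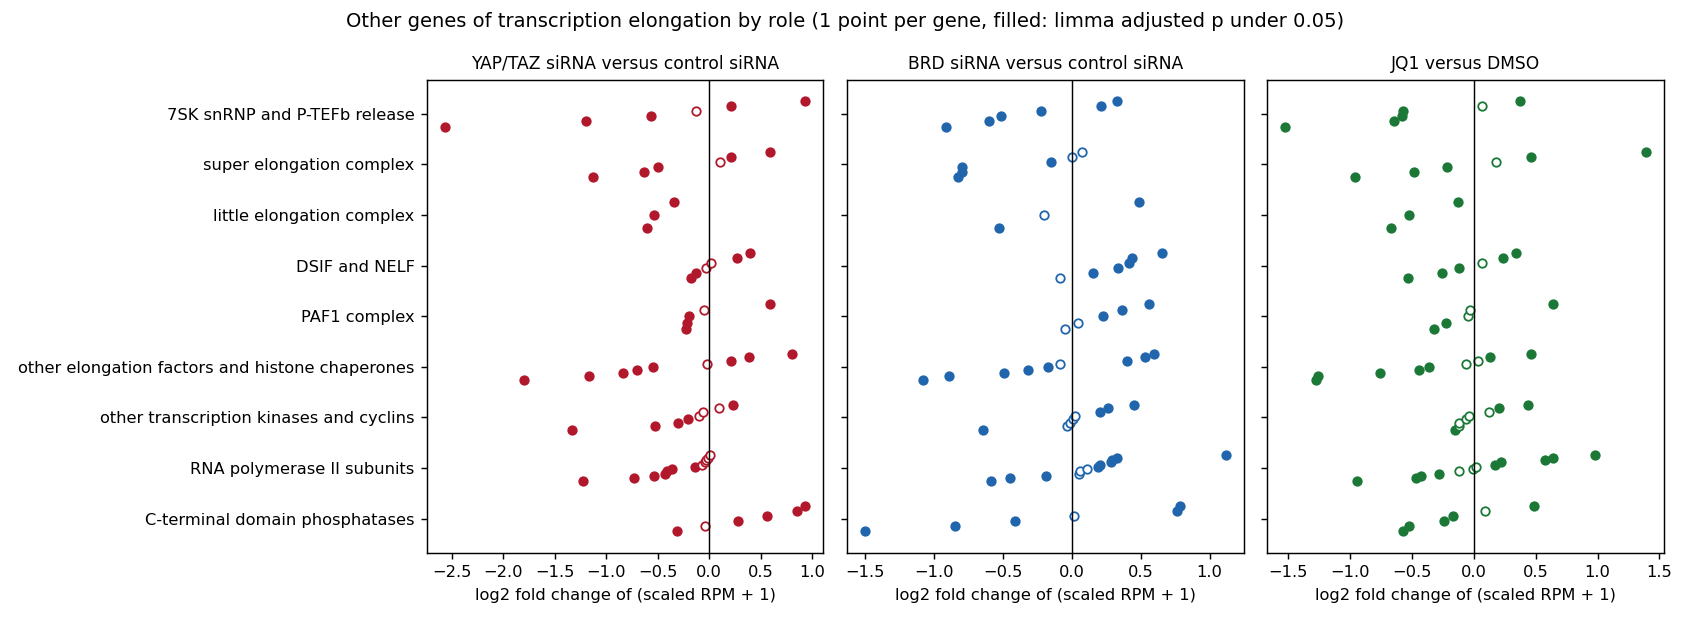
Log2 fold change (horizontal axis) of 61 other elongation and RNA polymerase II genes, grouped by role (vertical axis), with YAP/TAZ siRNA and BRD siRNA against control siRNA and with JQ1 against DMSO. Each point is a gene, and filled points passed an adjusted p of 0.05. DDX21 lay lowest at -2.56 with YAP/TAZ siRNA, and 7 of 12 polymerase II subunits were called lower there and 0 higher.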

How the data were processed

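Per the labels' protocols, stranded libraries were prepared from total MDA-MB-231 RNA with ribosomal RNA depleted. Per the submitters' processing notes, TopHat2 2.0.5, HTSeq 0.6.0, CASAVA 1.8.4, R 3.0.0, edgeR and hg19 were used. Their roles, the gene annotation, the use of strand and the kind of scaling are not stated here. The deposited values are a scaled signal, reads divided by a library size that the authors adjusted. Column sums of 903627 to 1098052 differed between libraries, so the values are not plain CPM. They show shares of the RNA in genes, so a change in total RNA per cell is not seen. Whole reads were recovered for 100% of values at a tolerance of 0.01 of a read, with 1 read worth 0.0276 to 0.0602. On these reads edgeR's quasi-likelihood test called 10616 genes with YAP/TAZ siRNA, 10160 with BRD siRNA and 10330 with JQ1, where limma on the deposited values called 10793, 10279 and 10104.

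Values were taken as log2(value + 1), kept where at least 1 in at least 2 libraries (13674 of 13734 genes, all 10 members included), and fitted in 1 limma model of 7 groups (limma 3.58.1, R 4.3.3, trended variance, 7 residual degrees of freedom). Fold changes are on that scale, p-values are two-sided, and Benjamini-Hochberg adjustment ran over all tested genes per comparison at 0.05. YAP/TAZ and BRD siRNA effects are means over both mixes. The fit was tested on simulated data with the same spread in all groups, which does not cover the wider replicate spread of BRD mix A. Alternatives were edgeR 4.0.16 and DESeq2 1.42.0 on the recovered counts, other pseudocounts (0.25 and 4), filters, scalings, references and libraries, and a replicate block.

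All 10 members are reported. Of 61 other elongation genes, up to 8 called genes with the largest statistic per main comparison are named, and for likeness the 5 genes nearest to HEXIM1. EAF1, AFF3, MLLT3 and the others named come from this rule. Some genes chosen this way are not reported here. The members and lists were chosen with earlier results of these data known. Promoters are from RefSeq (GRCh38.p14), with 9 of 10 members matched by symbol.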

Additional observations from a re-analysis of the deposited data

Results flagged for a closer look

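The effects of JQ1 and of BRD siRNA on CCNT2 differed by -1.19 on the log2 scale (adjusted p = 1.9e-10, limma), with -0.58 for JQ1 against DMSO and 0.61 for BRD siRNA against control siRNA. The effects on ELL2 differed by 0.82 (adjusted p = 1.3e-08), with 0.30 for JQ1 and -0.52 for BRD siRNA. Both were singled out because the libraries moved in opposite directions with JQ1 and with BRD siRNA, and the difference itself passed its test. BET protein was not measured. BRD2 RNA rose with JQ1 (log2 1.91) and fell with BRD siRNA (-0.53). BRD3 RNA also rose with JQ1 (0.28) and fell with BRD siRNA (-1.58). The 2 comparisons differ in time, agent and control, which cannot be told apart.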

How the results depend on the processing

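Over 2320 values of single members under the alternatives, 2265 kept their direction and side of the threshold, 28 lost the call, 5 gained it and 22 changed sign. Of these 22, 17 were not called in either fit, among them 7 of AFF1 between YAP/TAZ and BRD siRNA and 3 of CDK9 with JQ1 (-0.04, and 0.13 against control siRNA). The 5 that involve a call were CCNT1 with YAP/TAZ mix 1 alone (0.12), LARP7 with mix 2 alone (0.066), CCNT2 with YAP/TAZ siRNA against DMSO (0.049), ELL with BRD siRNA against DMSO (-0.18) and ELL with JQ1 against control siRNA (0.37). HEXIM1 was called higher under every alternative run, at 0.58 to 1.17 with YAP/TAZ siRNA, 0.84 to 1.54 with BRD siRNA and 1.44 to 1.96 with JQ1. Members called lower numbered 2 in place of 1 with JQ1 under median-ratio scaling, with only the compared libraries and with DESeq2, as CCNT1 joined. They numbered 1 in place of 3 with YAP/TAZ siRNA against DMSO. Members called higher between BRD mix A and mix B numbered 1 to 2 when single libraries were left out, with 2 without BRD mix A replicate 2, as AFF1 joined. Where a group is left with 1 library, it is assumed to vary like the others. Upper-quartile scaling moved the median of all genes with YAP/TAZ siRNA to 0.135, and LARP7 to -0.08 (adjusted p = 0.196). Deviations of replicate 1 from its group correlated at -0.521 to 0.421 over 21 group pairs (median 0.0106), with 8 pairs over 0.1. Control siRNA went with YAP/TAZ mix 1 (0.421) and with DMSO (0.364). BRD mix A went against DMSO (-0.521) and against control siRNA (-0.337). A block by replicate number changed no call of a member, with HEXIM1 at 1.01, 1.27 and 1.52. Pairing of libraries with unlike replicate numbers was not tested. Members rested on at least 519 reads in each library, so depth limits them little.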
